A study of Mus musculus with 15 samples.

Results

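The cell cycle and DNA replication genes studied here are 48 protein-coding genes, of 78317 gene identifiers in the count table, taken as the rows whose Ensembl identifier maps to a listed mouse symbol. They fall into 20 genes of S phase, 21 genes of mitosis, 4 genes of entry into the cycle from G1 and 3 inhibitors of cyclin-dependent kinases (CDKs). All 48 were found in the table and all 48 passed the filter on low counts. The question was whether their levels differed between the 5 groups, and whether the S-phase and the mitotic genes did so in the same way.

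MH-S is an alveolar macrophage line of the mouse that was transformed with SV40, and it divides in culture. RNA was taken after 24 h from 5 groups of 3 wells. M0 cells had medium alone, M1 cells had LPS at 1 µg/mL with IFN-γ at 20 ng/mL, and M2 cells had IL-4 at 20 ng/mL. The CaP and SiO2 cells had calcium phosphate or silica microrods, inhalable rod-shaped particles, at 0.1 mg/mL. Wells of a microrod group each had their own particle preparation, whereas the cells of every well came from 1 passage, so p-values measure the spread between wells and preparations and not between passages. The transforming proteins of SV40 bind the retinoblastoma protein and p53, the brakes on cycle entry and on division after damage, and all groups share this background.

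A dividing cell commits to the cycle in G1, where growth signals raise Myc and the D cyclins. Cyclin D with Cdk4 or Cdk6, and then cyclin E with Cdk2, release the E2F factors from the retinoblastoma protein, and E2F turns on the genes that make and copy DNA in S phase. A later wave, driven by B-Myb, Foxm1 and the MuvB complex, supplies the kinases, motors and centromere proteins of mitosis, some of which are destroyed when the cell divides. CDK inhibitors such as p21 (Cdkn1a) and p27 (Cdkn1b) hold the cycle back. Macrophages matured in the body mostly rest outside the cycle, although alveolar macrophages can renew themselves.

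The promoters of the S-phase and mitotic classes held different words. Promoters of 300 bases, 250 before and 50 after the transcription start, were taken from RefSeq (GRCm38.p6) and 39 of the 48 members had at least 1, with 45 promoters in all. A set of 3 motifs was searched on both strands, none of which contains another. These were the E2F site (TTTCCCGC, TTTGGCGC, TTTCGCGC or TTTGCCGC), the cell cycle homology region or CHR (TTTGAA or TTTAAA), which MuvB binds, and the CCAAT box (CCAAT). The CHR was in 15 of 16 promoters of the mitotic class (93.8%) and in 7 of 21 of the S-phase class (33.3%), against 27.6% of all 32851 promoters. The CCAAT box was in 93.8% and 66.7%, against 37.4% of all. The E2F site was in 9 of 21 S-phase promoters (42.9%) and in 1 of 16 mitotic promoters (6.25%, that of Cdk1), against 2.26% of all. A match of letters is not evidence of binding. The 150 bases just upstream of the start are shown for 3 mitotic and 2 S-phase genes that appear in the results, with the motif letters in capitals and each sequence on the strand of its gene. They lie at chr11:99024190-99024339 (Top2a, minus strand), chr7:135716380-135716529 (Mki67, minus strand), chr13:100786487-100786636 (Ccnb1, minus strand), chr6:88898781-88898930 (Mcm2, minus strand) and chr1:128359706-128359855 (Mcm6, minus strand). The Mcm2 stretch holds a CHR and no E2F word, and in that of Mcm6 2 E2F words overlap on opposite strands.
Top2a: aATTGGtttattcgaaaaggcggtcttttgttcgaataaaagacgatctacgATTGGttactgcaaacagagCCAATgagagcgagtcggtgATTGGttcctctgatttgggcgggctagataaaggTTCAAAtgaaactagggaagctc
Mki67: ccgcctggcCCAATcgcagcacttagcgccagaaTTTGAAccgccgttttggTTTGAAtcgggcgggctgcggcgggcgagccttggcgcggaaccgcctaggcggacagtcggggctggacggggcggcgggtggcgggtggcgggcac
Ccnb1: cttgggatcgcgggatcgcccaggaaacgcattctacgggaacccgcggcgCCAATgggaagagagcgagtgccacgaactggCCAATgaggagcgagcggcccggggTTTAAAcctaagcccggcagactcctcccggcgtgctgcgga
Mcm2: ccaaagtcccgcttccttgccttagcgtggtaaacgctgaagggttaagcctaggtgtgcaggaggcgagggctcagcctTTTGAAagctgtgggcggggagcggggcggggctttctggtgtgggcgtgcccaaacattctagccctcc
Mcm6: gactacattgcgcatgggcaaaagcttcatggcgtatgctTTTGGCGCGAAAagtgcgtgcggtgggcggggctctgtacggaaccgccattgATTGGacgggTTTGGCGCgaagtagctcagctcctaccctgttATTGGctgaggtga

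Levels are given as CPM, the counts in every 1000000 of a library after TMM scaling. All 15 libraries entered 1 quasi-likelihood fit in edgeR. A gene was called where its Benjamini-Hochberg adjusted p over the 16654 genes tested was below 0.05 and its log2 fold change was beyond 0.5 in either direction. Library totals ran from 8459643 to 68750050 counts. Within each group, replicates differed by more than sampling noise, with a chi-square per gene from 6.91 to 134.8 over the 15 pairs. On the second principal component of the 500 most variable genes (22% of their variance), M0 replicate 3 (24), M2 replicate 2 (28.2) and SiO2 replicate 2 (13.6) stood apart from the other 12 libraries, which lay between -14.3 and 4.32. The libraries also differed in how their levels ran with transcript GC content. M0 replicate 1 (-0.24), M1 replicate 1 (-0.23), M0 replicate 3 (-0.13) and M2 replicate 2 (-0.10) had the lowest slopes, in log2 units per 10 percentage points of GC, and the other 11 lay between -0.01 and 0.19. Slopes with transcript length, in log2 units per doubling, ran from -0.179 in CaP replicate 1 to 0.154 in M0 replicate 3. The next highest were SiO2 replicate 2 (0.109) and M2 replicate 2 (0.0842). Marker genes followed the stimuli, with Il1b at a mean of 1.07 CPM in M0 and 411 CPM in M1, and Arg1 at 11.0 CPM in M0 and 1550 CPM in M2. Of 8 macrophage markers, 7 had over 3 counts in every library, whereas of the 4 alveolar markers Siglecf, Car4 and Pparg were at 0.658 CPM or less in every library and Itgax was at 1.57 to 4.93 CPM. Markers of fibroblasts, epithelial cells, T cells and B cells summed to at most 0.172 CPM in any library.

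All members were detected in every library, the fewest counts being 22 for Myc. Per kilobase of transcript and in M0, the highest levels were those of Cdkn1a (p21, 215 CPM per kb), Cenpa (the histone of the centromere, 211), Cdc20 (which triggers anaphase, 210) and Cdk4 (199). Myc (1.11 CPM per kb), the inhibitor Cdkn2c (2.14) and Foxm1 (2.37) were the lowest. The median was 39.3 CPM per kb over the mitotic genes and 21.9 over the S-phase genes. In bulk RNA, fewer cells in a phase and less RNA per cell cannot be told apart. The reads of 2 members are uncertain because processed pseudogenes took counts of their own, 40.4% of the Pcna count for Pcna-ps2 and 26.6% of the Ccnb1 count for Ccnb1-ps. Exons of Kif20a, Ccnd1, Ube2c and Cdk4 overlap those of a gene on the other strand over 29.3%, 23.4%, 22.8% and 19.7% of their length, and strand use in counting is not stated in the sources used here.

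The S-phase and mitotic members, taken as classes, stood at nearly the same level in all 5 groups. The mean log2(CPM + 1) of the 20 S-phase genes, taken as the deviation from the mean of the 15 libraries, was -0.03 ± 0.16 (SD, n = 3) in M0, -0.00 ± 0.12 in M1, 0.05 ± 0.20 in M2, -0.03 ± 0.39 in CaP and 0.01 ± 0.19 in SiO2 cells. The same value for the 21 mitotic genes was 0.05 ± 0.11 in M0, -0.01 ± 0.03 in M1, 0.01 ± 0.12 in M2, -0.03 ± 0.22 in CaP and -0.02 ± 0.13 in SiO2 cells. The group means of the S-phase class differed by at most 0.0847 and those of the mitotic class by at most 0.0802, whereas libraries of the CaP group alone spanned 0.749 and 0.432. The plot of both class levels by library shows the groups mixed with each other.

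**Figure D1:**
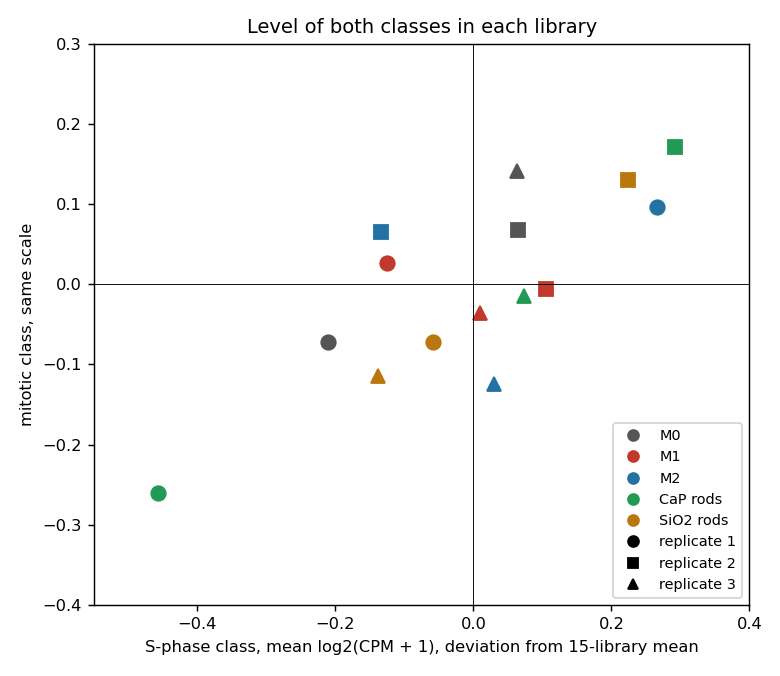
Mean level of the 20 S-phase genes (x axis) against that of the 21 mitotic genes (y axis) in each of the 15 libraries, both as log2(CPM + 1) relative to the mean over the 15 libraries. Colours are groups and symbols are replicate numbers, and the lowest and highest S-phase levels, -0.457 and 0.292, are both libraries of the CaP group.

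CaP replicate 1 was the low library. It also had the lowest slope with transcript length of the 15 libraries (-0.179), and whether this bears on its levels was not tested. It held the lowest level of the 15 libraries in 8 of the 20 S-phase genes and in 7 of the 21 mitotic genes, while CaP replicate 2 held the highest in 6 and in 4. Mcm4, a subunit of the replicative helicase, showed this, with 17.1, 52.5 and 41.8 CPM in the 3 CaP libraries against 41.8, 36.9 and 54.0 CPM in M0. Kif20a, a motor of cytokinesis, had 13.2, 55.2 and 49.1 CPM in the CaP libraries and the highest coefficient of variation of the members there (57.9%). The difference between the S-phase and mitotic levels also varied within groups and had a mean of -0.07 ± 0.07 in M0 and between 0.00 and 0.04 in the other 4 groups. The median coefficient of variation of the members was 15.2% in M0, 12.3% in M1, 19.1% in M2, 20.1% in CaP and 14.2% in SiO2 cells.

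**Figure D2:**
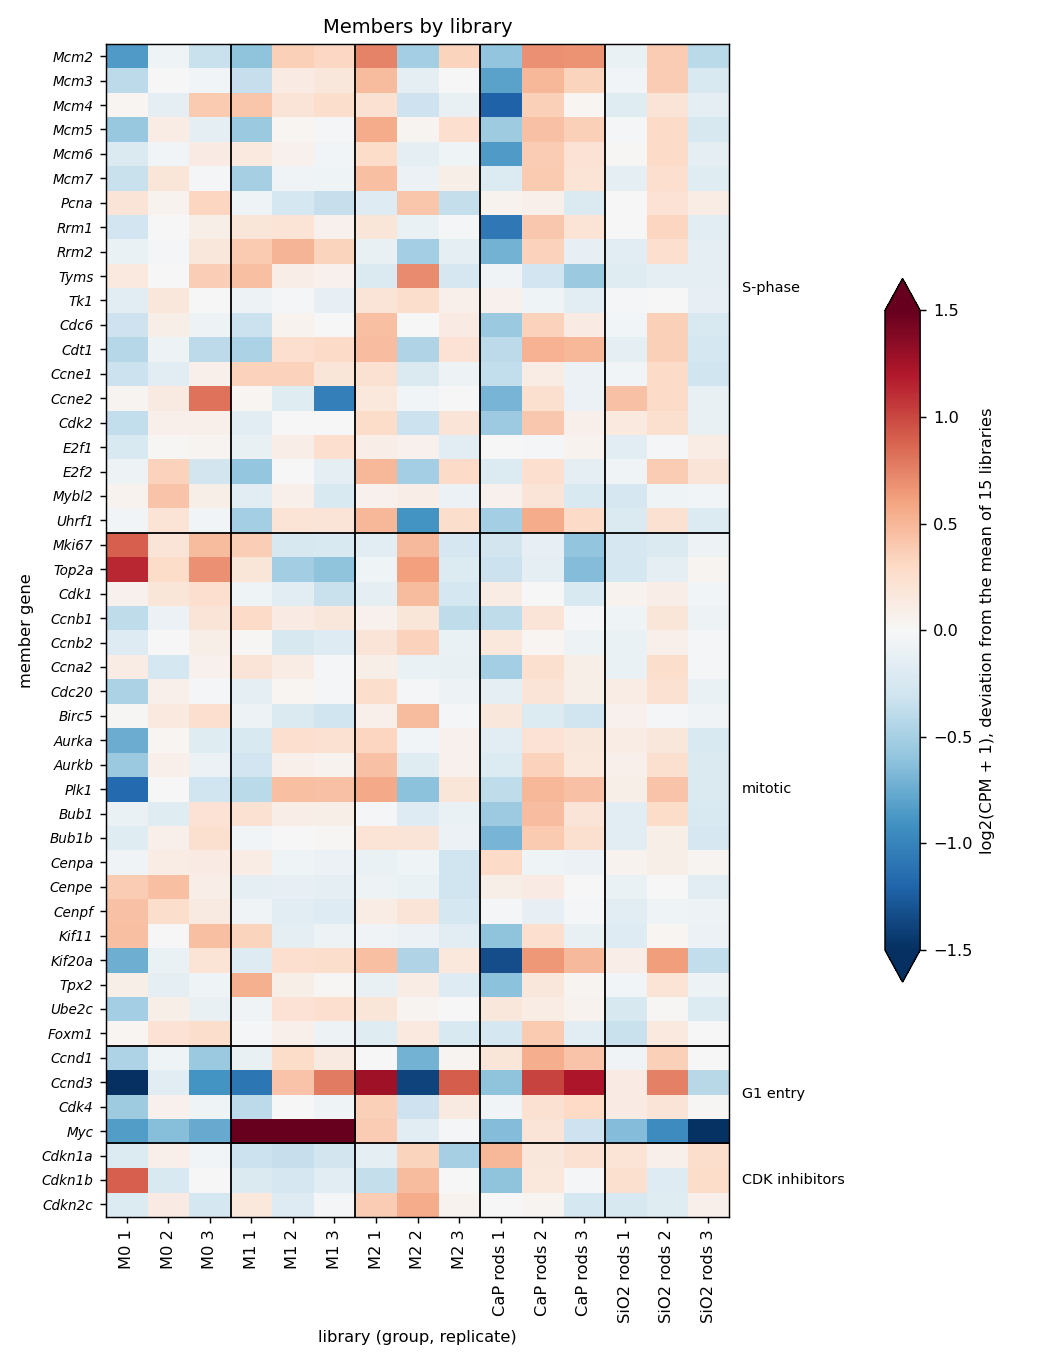
Level of the 48 members (rows, by class) in the 15 libraries (columns), as log2(CPM + 1) minus the mean of the gene over the libraries. The colour scale stops at ±1.5, a limit that Myc passes in the 3 M1 libraries, and the S-phase rows of CaP replicate 1 are mostly blue while those of CaP replicate 2 are mostly red.

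In M1 cells, Myc rose from a mean of 2.59 ± 0.249 to 22.8 ± 5.13 CPM and Top2a fell from 404 ± 120 to 200 ± 63.6 CPM, and no other member was called. Myc, the transcription factor that drives growth and cycle entry, had 2.37, 2.86 and 2.55 CPM in the M0 libraries and 17.6, 22.9 and 27.9 CPM in the M1 libraries. The groups did not overlap, and the log2 fold change was 3.15 with a standard error (SE) of 0.34 and an adjusted p of 3.06e-05. Top2a, the topoisomerase that untangles chromosomes for division, had 530, 291 and 389 CPM in M0 and 273, 168 and 158 CPM in M1. All M1 libraries were below all M0 libraries, although by little between the highest M1 and the lowest M0 library, and the log2 fold change was -1.02 (SE 0.28, adjusted p = 0.0263). The call of Top2a was lost without M0 replicate 1 (adjusted p = 0.108), without M1 replicate 2 (adjusted p = 0.11), without M1 replicate 3 (adjusted p = 0.115) and in a fit of only the 6 libraries compared (adjusted p = 0.0534). Over all genes tested, 14.1% were called in M1 against M0, 9.7% higher and 4.35% lower, and 2 of 48 members were called. DESeq2 called the same 2 genes, beside 16.8% of all genes. An unadjusted p below 0.05 was reached by 8 members, beside 27.7% of all genes.

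The S-phase genes had a median log2 fold change of 0.03 in M1 against M0 and the mitotic genes one of -0.06, beside -0.01 over all genes tested. No S-phase gene was called by edgeR or by DESeq2, with 3 at an unadjusted p below 0.05 in edgeR. These were Pcna, the sliding clamp of the polymerases, Ccne1 and Ccne2, the E cyclins. Pcna had 180, 163 and 197 CPM in M0 and 150, 131 and 124 CPM in M1, with no overlap and a log2 fold change of -0.42 (SE 0.19, adjusted p = 0.168). Ccne1 had a log2 fold change of 0.44 (adjusted p = 0.166) and Ccne2 one of -0.72 (adjusted p = 0.177), so the values of these cyclins differed in sign. The helicase subunits Mcm2 to Mcm7 lay between -0.15 and 0.47, each with an interval that included 0.

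Among the mitotic genes, Cenpe, Cenpf and the proliferation marker Mki67 had lower values in M1, short of a call, whereas other centromere and checkpoint genes lay near 0, with log2 fold changes of 0.17 for Bub1, -0.06 for Bub1b and -0.08 for Cenpa. Cenpe, a kinetochore motor, had 56.8, 59.8 and 46.7 CPM in M0 and 39.3, 39.8 and 39.0 CPM in M1. Its log2 fold change of -0.47 (SE 0.14) passed the p threshold (adjusted p = 0.0366) but not the fold threshold. Cenpf, a kinetochore protein, had one of -0.43 (adjusted p = 0.0742). Mki67, which coats mitotic chromosomes, had 66.6, 40.4 and 49.5 CPM in M0 and 45.8, 29.8 and 29.9 CPM in M1, and these groups overlapped. Its log2 fold change was -0.57 (adjusted p = 0.158). Without M2 replicate 2, which is in neither group, 6 members were called in M1 against M0, namely Myc, Top2a, Cenpe (-0.57), Cenpf (-0.53), Mki67 (-0.68) and Pcna (-0.52). Cyclin B1 (Ccnb1), the partner of Cdk1 at entry into mitosis, had 183, 225 and 273 CPM in M0 and 292, 259 and 268 CPM in M1, with a log2 fold change of 0.27 (adjusted p = 0.402). Of the 48 members, the libraries of 3 were all higher and of 8 all lower in M1 than in M0 (22.9%), beside 32.2% of all genes tested.

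**Figure D3:**
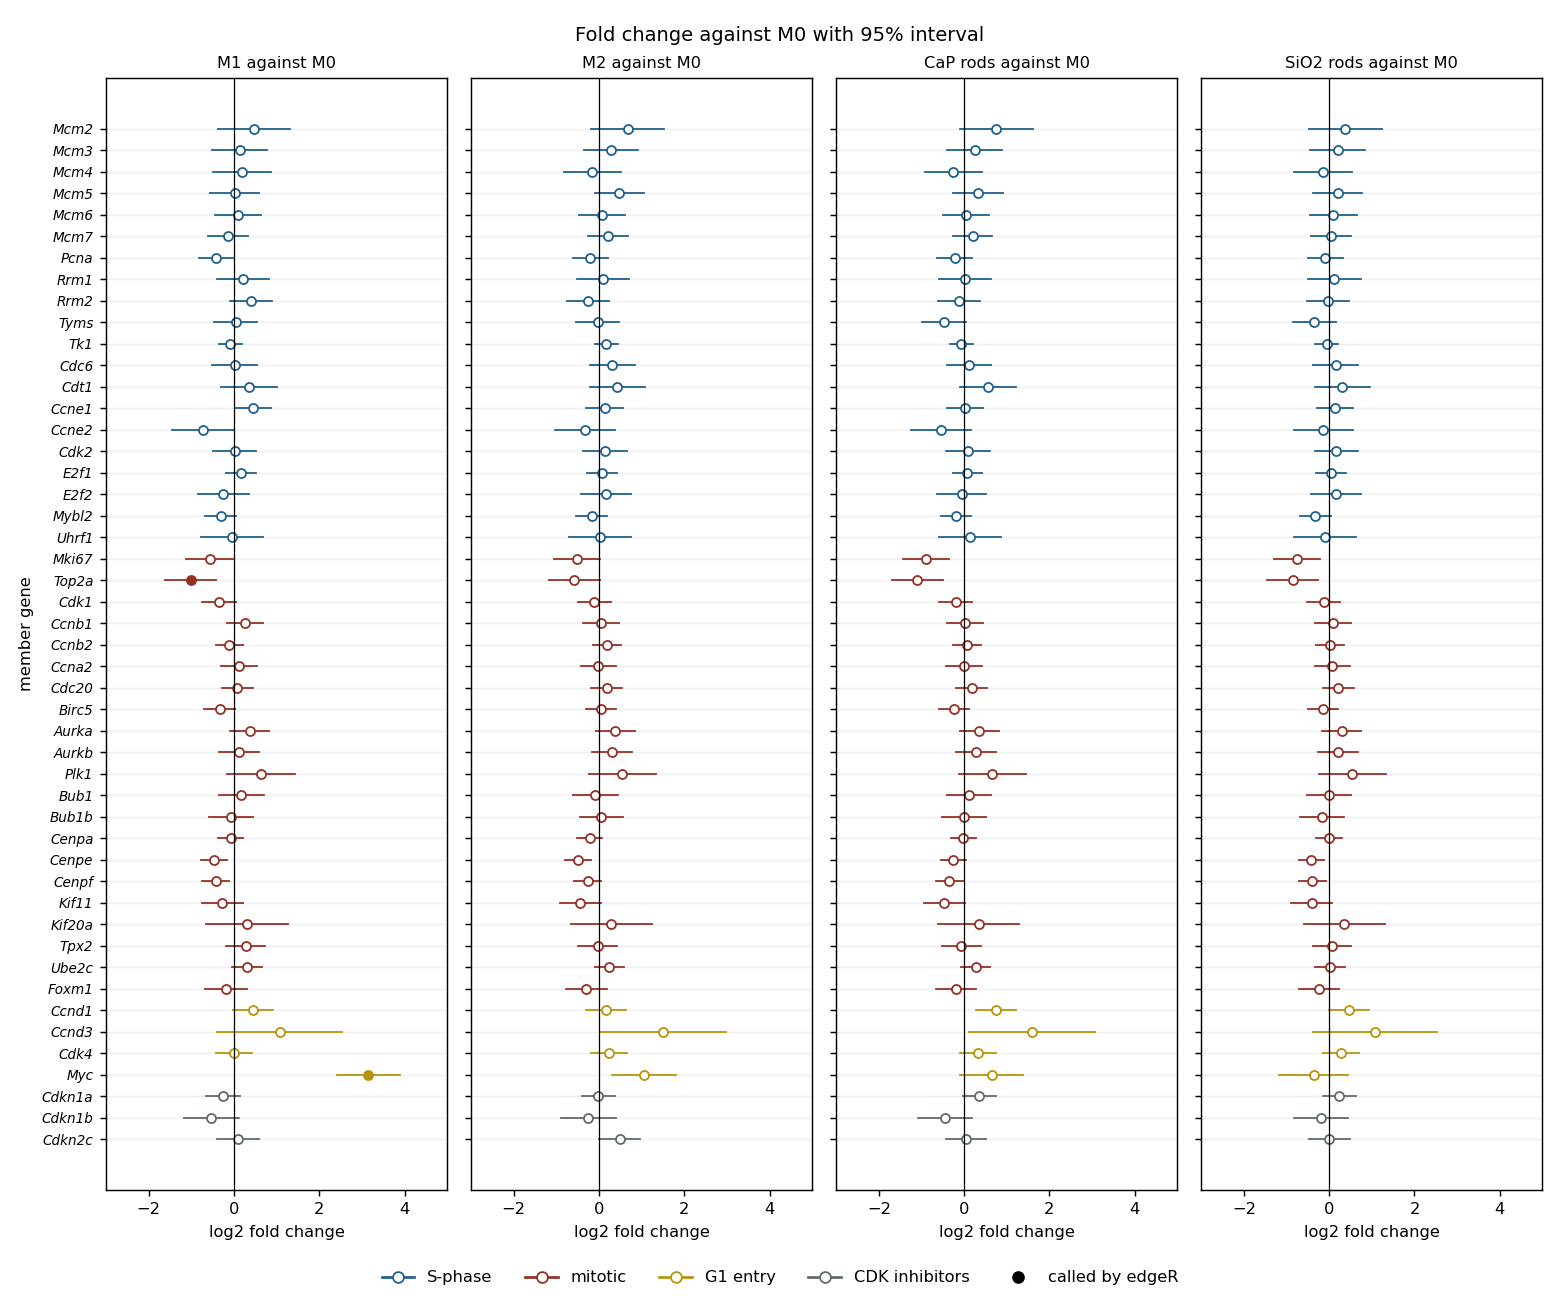
Log2 fold change of each member against M0 in the 4 other groups, with lines for the 95% interval from the edgeR fit and filled points for called genes. Only Myc (3.15) and Top2a (-1.02) in M1 are filled, and the other points lie mostly within 0.5 of 0.

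In M2 cells no member was called. The intervals of Mcm2, Mki67 and Top2a included 0, and that of Cenpe lay below it, from -0.79 to -0.20. Top2a had a log2 fold change of -0.58 (interval -1.18 to 0.01, adjusted p = 0.301). Mki67 had one of -0.52 (interval -1.06 to 0.02, adjusted p = 0.316). edgeR called 0 of 48 members against 4.13% of all genes tested (2% higher and 2.13% lower), with 4 members at an unadjusted p below 0.05 beside 17.2% of all genes. DESeq2 also called 0 members, beside 5.97%. The 4 were Cenpe (log2 fold change -0.49, SE 0.14, adjusted p = 0.0655), Myc (1.06, SE 0.35, adjusted p = 0.119), Ccnd3 (1.49, SE 0.69, adjusted p = 0.282) and Cdkn2c (0.48, SE 0.22, adjusted p = 0.286). Myc had 6.82, 4.34 and 4.87 CPM in M2, each above the highest M0 library. Cenpe had 41.0, 40.3 and 35.2 CPM, each below the lowest M0 library, and it was called without M2 replicate 2 (adjusted p = 0.0406) or without CaP replicate 1 (adjusted p = 0.0459). Mcm2 had 43.9, 75.8 and 63.1 CPM in M0 and 134, 55.4 and 100 CPM in M2, so that M2 replicate 2 lay inside the M0 range and the others above it. Its log2 fold change was 0.67 (SE 0.40, adjusted p = 0.43). The median was 0.11 over the S-phase genes and -0.02 over the mitotic genes, beside 0.07 over all genes. The libraries of 10.4% of members did not overlap, beside 15.2% of all genes.

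Between the polarized states, Myc was higher in M1 than in M2 and no other member was called by edgeR. The log2 fold change of Myc was 2.08 (SE 0.32, adjusted p = 0.000429), where 16.1% of all genes tested were called (10.6% higher and 5.47% lower) and 17.1% by DESeq2. An unadjusted p below 0.05 was reached by 3 members, beside 29.7% of all genes. Rrm2, the subunit of ribonucleotide reductase that limits the supply of DNA precursors, had 175, 189 and 168 CPM in M1 and 123, 92.8 and 120 CPM in M2. The groups did not overlap, and the log2 fold change of 0.66 (SE 0.23) missed the threshold in edgeR (adjusted p = 0.0648) and passed it in DESeq2 (adjusted p = 0.0417). It passed in edgeR without CaP replicate 1 (adjusted p = 0.0184) or without CaP replicate 2 (adjusted p = 0.0347), and E2f2 was called without M2 replicate 2 (-0.74, adjusted p = 0.0364). Rrm1, the other subunit of the reductase, had a mean of 104 ± 5.29 CPM in M1 and 95.5 ± 10.0 CPM in M2. The S-phase median was -0.13 and the mitotic median 0.02, beside -0.04 over all genes. The libraries of 12.5% of members did not overlap, beside 29.4% of all genes.

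With CaP microrods, Top2a and Mki67 had lower values and cyclin D1 and D3 higher values than in M0, and none was called by edgeR. It called 0 of 48 members against 0.654% of all genes tested, with 5 members at an unadjusted p below 0.05, 2 higher and 3 lower, beside 15.8% of all genes. By direction, edgeR called 0.426% of all genes higher and 0.228% lower. DESeq2 called 3 members, beside 2.77% of all genes. Top2a had 192, 219 and 153 CPM in the CaP libraries, all below the 3 M0 libraries (log2 fold change -1.10, SE 0.28, adjusted p = 0.0954; DESeq2 adjusted p = 0.0161). Mki67 had 29.1, 32.4 and 23.1 CPM, again all below M0 (log2 fold change -0.89, SE 0.25, adjusted p = 0.128; DESeq2 adjusted p = 0.0427). Ccnd1, cyclin D1, had 112, 148 and 105 CPM in M0 and 175, 226 and 208 CPM in CaP, all above M0. Its log2 fold change was 0.74 (SE 0.22, adjusted p = 0.14; DESeq2 adjusted p = 0.0493). The remaining 2 of the 5 were Ccnd3 (1.58, SE 0.69, adjusted p = 0.288) and Cenpf (-0.35, SE 0.15, adjusted p = 0.285).

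Of the 21 mitotic genes, 18 had a log2 fold change against M0 within 0.5 of 0. Ccnb1 had 183, 273 and 233 CPM in CaP cells and a log2 fold change of 0.02, with a 95% interval from -0.40 to 0.44. Cenpa (-0.01), Ccna2 (-0.00), Bub1b (-0.00) and Ccnb2 (0.07) were as close to 0, and Plk1, the polo kinase, had 0.66 (SE 0.37, adjusted p = 0.399). The median was -0.00 over the mitotic genes and 0.04 over the S-phase genes, beside 0.06 over all genes. The interval lay within 1 log2 unit of 0 for 17 of 20 S-phase and 17 of 21 mitotic genes. Mcm2 was highest of the S-phase genes by log2 fold change (0.75, SE 0.40, adjusted p = 0.369), with 52.3, 129 and 127 CPM. Without M2 replicate 2, Top2a (adjusted p = 0.0359) and Mki67 (adjusted p = 0.0447) were called, and without M0 replicate 1 their adjusted p was 0.424 and 0.527. The libraries of 12.5% of members did not overlap, beside 17.4% of all genes.

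With SiO2 microrods Top2a, Mki67, Cenpe and Cenpf had the lowest p-values of the members, and none was called. edgeR called 0 of 48 members against 0.264% of all genes tested (0.222% higher and 0.042% lower), and DESeq2 called 0 beside 0.781%. The 4 members with an unadjusted p below 0.05, beside 8.15% of all genes, were all lower and all mitotic. These were Top2a (log2 fold change -0.86, adjusted p = 0.369), Mki67 (-0.75, adjusted p = 0.403), Cenpe (-0.42, adjusted p = 0.386) and Cenpf (-0.39, adjusted p = 0.483). The same 4 have the longest transcripts of the 48 members, from 5221 bases for Top2a to 11130 for Cenpf. Whether length bears on their values was not tested. Top2a had 201, 218 and 249 CPM and Mki67 29.4, 30.3 and 33.6 CPM in the SiO2 libraries, all below M0. The rods share the M0 libraries with each other and with M1 and M2, so these values are not independent of those above. Cyclin D1 lay just above its M0 range, at 149, 199 and 154 CPM, and its log2 fold change was 0.46 (adjusted p = 0.622). The S-phase median was 0.07 and the mitotic median -0.00, beside -0.02 over all genes, and the libraries of 14.6% of members did not overlap, beside 18% of all genes.

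Set against each other, the rods gave no called member. edgeR called 0 of 48 against 0.018% of all genes tested, DESeq2 called 0 beside 0.102%, and 1 member, Myc, had an unadjusted p below 0.05 beside 1.66% of all genes. The libraries of 2.08% of members did not overlap, beside 8.1% of all genes. Myc had 2.81, 5.85 and 3.84 CPM in CaP and 2.84, 2.12 and 1.15 CPM in SiO2 cells, and the groups overlapped (log2 fold change 1.00, SE 0.35, adjusted p = 1.00). The difference in Top2a was -0.25 with a 95% interval from -0.84 to 0.35, and that in Mcm2 was 0.37 with an interval from -0.47 to 1.22. The intervals of 18 of 20 S-phase genes and 21 of 21 mitotic genes lay within 1 log2 unit of 0.

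**Figure D4:**
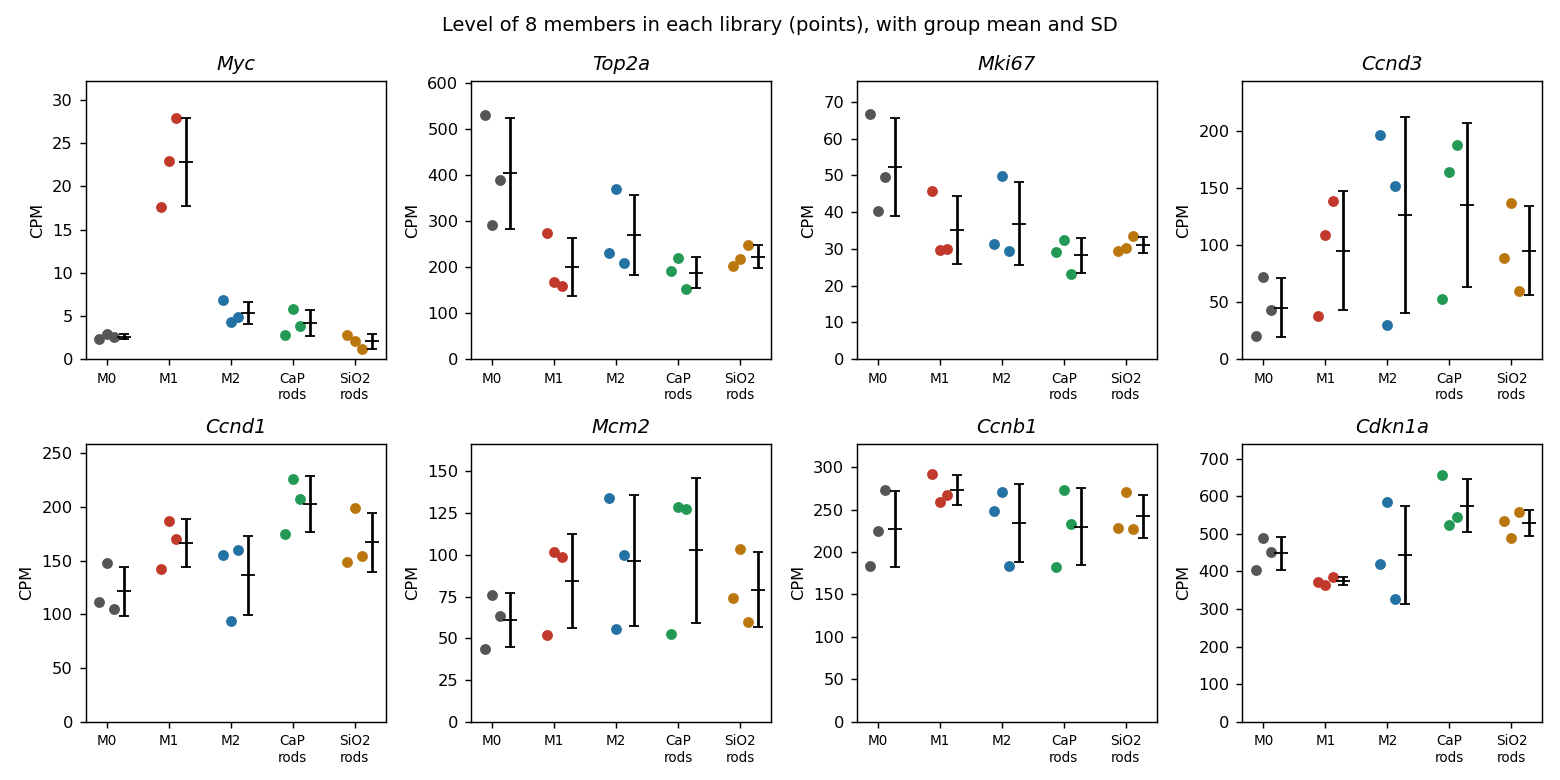
CPM of 8 members in each library (points, in the order of replicates 1 to 3), with the mean and SD of each group of 3 libraries beside them. Myc is separate in M1, Top2a and Mki67 have their highest means in M0, and Ccnd3 spans a wide range inside every group.

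Of the 4 genes of cycle entry, cyclin D3 had the highest coefficient of variation between replicates in M0, M1, M2 and CaP cells, and Myc in SiO2 cells (41.7%, against 40.9% for Ccnd3). Ccnd3 had 20.2, 72.2 and 43.0 CPM in M0, 37.3, 108 and 139 in M1, 196, 30.1 and 152 in M2, 52.7, 164 and 188 in CaP and 88.1, 137 and 60.0 in SiO2 cells. Its log2 fold change over M0 was between 1.08 and 1.58 in the 4 groups, with an SE of 0.68 to 0.69, and no group was apart from M0. Cdk4, the kinase that cyclin D activates, had 315, 475 and 436 CPM in M0 and means of 412 ± 56.7 CPM in M1 and 513 ± 63.1 CPM in CaP cells. Myc was lowest in SiO2 cells (2.04 ± 0.85 CPM) and next in M0 (2.59 ± 0.25), CaP (4.17 ± 1.55) and M2 (5.34 ± 1.31), and of these neighbours each pair overlapped, while M1 (22.8 ± 5.13) was apart from all.

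The CDK inhibitors did not pass the test in any comparison with edgeR or DESeq2, and 1 of the 3, Cdkn2c in M2, had an unadjusted p below 0.05 against M0. Cdkn1a, the p21 gene, had 403, 490 and 451 CPM in M0, 371, 365 and 386 in M1 and 656, 524 and 545 in CaP cells. All M1 libraries were below and all CaP libraries above those of M0. The log2 fold changes were small, -0.26 (SE 0.18, adjusted p = 0.383) in M1 and 0.36 (SE 0.18, adjusted p = 0.356) in CaP cells. In M2 and SiO2 cells the libraries overlapped those of M0. Cdkn1b had a mean of 65.4 ± 29.0 CPM in M0, where replicate 1 had 98.6 CPM and the others 44.9 and 52.7 CPM.

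Differences short of a call ran with the base composition of the transcript. Over the 48 members, log2 fold change and transcript GC content had a Pearson r of 0.37 in M1, 0.64 in M2, 0.62 in CaP and 0.49 in SiO2 cells against M0, where all genes tested had 0.07, 0.27, 0.29 and 0.25. The members share libraries, and these are descriptions with no test. In CaP cells, 19 of the 24 members with the higher GC content had a positive and 16 of the 24 with the lower a negative log2 fold change. The 4 libraries with the lowest GC slopes were also the 4 highest for Mki67 (46.6% GC) and the 4 lowest for Ccnd1 (50.9%), Ccnd3 (58.4%) and, in the S-phase class, Cdt1 (58.8%). They included 3 of the 4 highest for Top2a (43.4%), and 3 of the 4 lowest for Mcm2 (55.5%) and Plk1 (56.0%). Other members did not follow this order. The 4 libraries held 1 of the 4 lowest and 2 of the 4 highest for Mybl2 (56.3%), and 2 of each for Cdkn2c (58.0%). For Ccne2 (36.3%) they held 1 of the 4 highest. M0 replicates 1 and 3 are among these 4 libraries, so GC slope and group cannot be fully told apart. Among the mitotic genes, log2 fold change also fell with transcript length, with r between -0.62 and -0.73 against M0. The longest mitotic transcripts were those of Cenpf, Mki67, Cenpe and Top2a. All genes tested had an r with length of 0.16 in M1, -0.17 in M2, -0.19 in CaP and -0.01 in SiO2 cells. The S-phase genes had between -0.03 and 0.15. Why the libraries differ in their slopes with GC content or length was not tested.

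**Figure D5:**
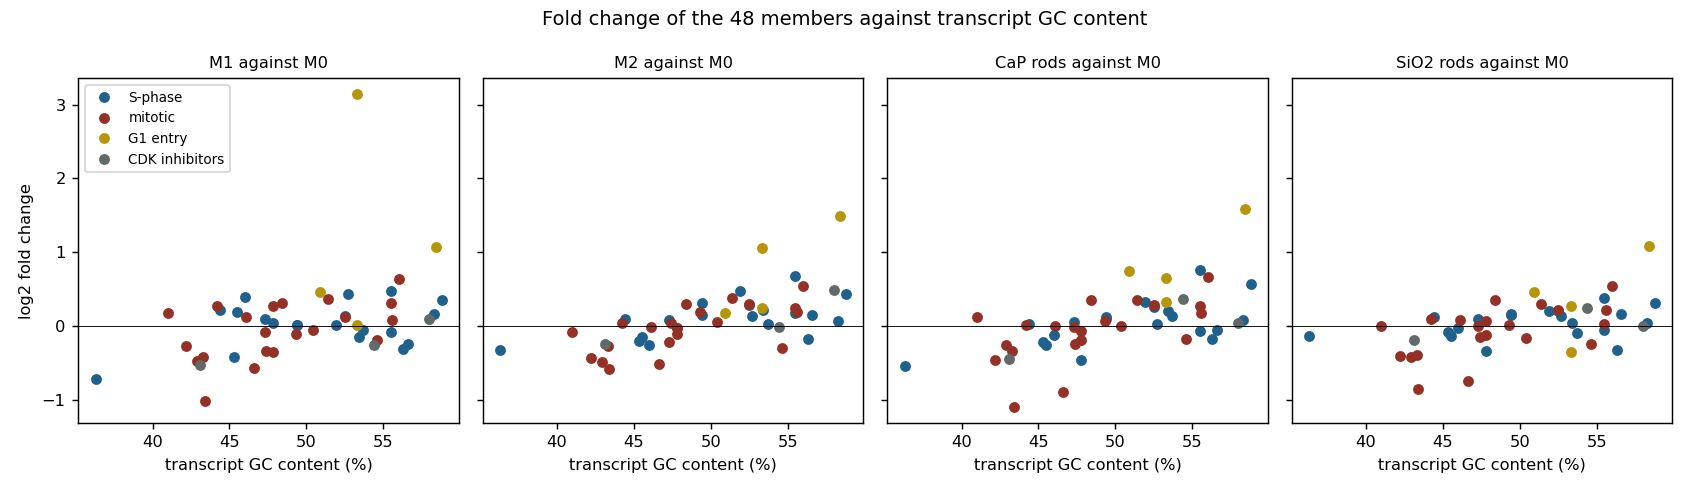
Log2 fold change of the 48 members against M0 (y axis) by the GC content of their longest coding transcript (x axis, in percent), with 1 panel for each group and colours for the classes. Points rise from left to right in the M2, CaP and SiO2 panels (r = 0.64, 0.62 and 0.49), and Myc in M1 lies far above the others.

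When GC content and length were entered as offsets in the fit, an alternative chosen after seeing the data, the spread of the members around their mean narrowed. The SD of their log2 fold changes against M0 went from 0.59 to 0.53 in M1, 0.38 to 0.28 in M2, 0.44 to 0.34 in CaP and 0.32 to 0.27 in SiO2 cells. In M1 against M2 it was 0.398 before and 0.396 after. The offsets were fitted to these same libraries, so the narrowing is no test of an effect of GC content or length. With them, r with GC content was still 0.24 in M1, 0.24 in M2, 0.32 in CaP and 0.13 in SiO2 cells against M0. Myc (2.80, adjusted p = 7.33e-06) and Top2a (-1.02, adjusted p = 0.00794) stayed called in M1, and no other member was called in any comparison with M0. In CaP cells Top2a then had -0.90, Mki67 -0.59, Ccnd1 0.71 and Ccnd3 1.23, whereas Cenpf had -0.01. Cenpe then had -0.42 in M1, -0.19 in M2 and -0.20 in SiO2 cells. Cenpf had -0.35 in M1 and -0.13 in SiO2 cells.

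Further genes of the same processes, 45 of replication and 57 of mitosis, held few calls. In M1 against M0, where 14.1% of all genes were called, 0 of 45 replication genes were higher and 2 lower, both subunits of the single-strand binding complex RPA. Rpa2 had a mean of 200 ± 20.4 CPM in M0 and 132 ± 15.7 CPM in M1 (log2 fold change -0.60, adjusted p = 0.033), and Rpa3 101 ± 4.86 and 60.7 ± 12 CPM (-0.73, adjusted p = 0.0356). Of the 57 mitotic genes 1 was higher and 1 lower in M1, the kinase gene Pbk (0.57, adjusted p = 0.0254) and the spindle motor gene Kif15 (-0.66, adjusted p = 0.0383). The calls of Rpa2, Rpa3, Kif15 and Pbk were lost in 4, 5, 8 and 5 of the 15 fits that left out 1 library. In M2, where 4.13% of all genes were called, Clspn, which relays replication stress, was lower (-0.61, adjusted p = 0.0478) and the microtubule gene Psrc1 higher (0.59, adjusted p = 0.04), calls that were lost in 13 and 12 of the 15 fits. In CaP and SiO2 cells edgeR called none of these 45 and 57 genes, where 6 and 4 in CaP and 2 and 1 in SiO2 cells had an unadjusted p below 0.05, beside 15.8% and 8.15% of all genes. DESeq2 called 1 replication gene lower in each, beside 2.77% and 0.781% of all genes called in either direction. Log2 fold changes of both lists leaned below 0 with the rods. In CaP cells 33 of 45 replication and 39 of 57 mitotic genes were negative, with medians of -0.15 and -0.09 beside 0.06 over all genes. In SiO2 cells 32 and 34 were negative, with medians of -0.10 and -0.09 beside -0.02. The replication list also had 29 negative in M1 and 26 in M2, with medians of -0.09 beside -0.01 and -0.03 beside 0.07. For the mitotic list 25 were negative in M1 and 23 in M2, with medians of 0.04 and 0.05. All these comparisons share the M0 libraries. Why these lists leaned lower was not tested.

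Regulators of the cycle outside its machinery made up a further list, of which 26 were tested. In M1, 3 were called higher and 2 lower, beside 9.7% and 4.35% of all genes. Ccnd2, cyclin D2, had 71.4, 85.5 and 67.6 CPM in M0 and 25.7, 29.3 and 29.9 in M1 (log2 fold change -1.40, SE 0.15, adjusted p = 2.9e-05). Tfdp2, a partner of the E2F factors, had 5.90, 4.88 and 7.18 CPM in M0 and 1.29, 1.5 and 1.17 in M1 (-2.14, SE 0.28, adjusted p = 0.000177). The antiproliferative gene Btg2 (1.5, adjusted p = 0.000221), the Myc antagonist Mxd1 (1.24, adjusted p = 0.00121) and the CDK inhibitor Cdkn2d (1.16, adjusted p = 0.000688) were higher. These 5 calls held in all 15 fits that left out 1 library. In M2, Ccnd2 (-0.71, adjusted p = 0.0154) and the antiproliferative gene Btg1 (-1.56, adjusted p = 0.00754) were lower and none was higher, beside 2.13% and 2% of all genes. The Ccnd2 call was lost in 1 of the 15 fits.

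Cdkn2d, which encodes the Cdk4 and Cdk6 inhibitor p19, was the 1 regulator of 26 called with CaP microrods, where 0.654% of all genes were called. It had 34.5, 57.3 and 45.2 CPM in M0 and 87.0, 81.6 and 85.5 CPM in CaP cells (log2 fold change 0.89, SE 0.18, adjusted p = 0.0428). The groups were apart, but the call was lost in 11 of the 15 fits that left out 1 library, with an adjusted p of up to 0.212. SiO2 cells had 74.8, 81.6 and 73.2 CPM, also above M0, with no call by edgeR. It called 0 regulators there, beside 0.264% of all genes, with 4 at an unadjusted p below 0.05 beside 8.15%. DESeq2 called 1 regulator, beside 0.781% of all genes. Cdkn2a and Cdkn2b, which encode the related inhibitors p16 and p15, had 0 counts in all libraries.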

How the data were processed

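The authors made Smart-seq2 libraries, which amplify full-length cDNA without molecular identifiers, sequenced paired-end reads, aligned them with STAR and quantified them with Salmon on mouse genome GRCm39. The deposited table holds whole-number counts per Ensembl gene, not normalized, which may be rounded Salmon estimates, and 0 columns were left out. Symbols, transcript lengths and GC content came from another release of the annotation (GENCODE on GRCm38). Promoters are from RefSeq. Totals ran from 8459643 to 68750050 counts, and limits from counts cover counting error only.

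Counts were fitted in R 4.3.3 with edgeR 4.0.16 (filterByExpr by group, TMM, quasi-likelihood test, 16654 genes tested), with DESeq2 1.42.0 as an alternative, and Benjamini-Hochberg adjustment over all genes. Intervals come from the F statistic of each contrast. CPM are given with the SD of 3 libraries, and class levels are mean log2(CPM + 1). With 3 against 3 libraries an exact two-sided permutation test cannot go below 0.1. In counts simulated for M1 against M0 (16368 genes), edgeR recovered 22% of genes changed by 1 log2 unit and 80% of those changed by 2, with 0.971% of its calls false. DESeq2 recovered 41% and 92%, with 18.9% of its calls false. Simulated counts were drawn gene by gene from the spread that edgeR estimated, with no GC slope and no library that stands apart. These percentages are therefore not error rates of the real data. The members and lists were chosen with earlier results of these data known. Values in all libraries are given for members called in any comparison, those that define a class and those a result turns on. Genes of the further lists are named if called, at most 3 in each direction for each list and comparison, with no overlap of libraries and at least 5 CPM in 1 of the groups. Alternatives were DESeq2, its size factors, no filter, the legacy quasi-likelihood, a replicate block, thinned counts, only the libraries compared, no minimum fold, 3 or 1 libraries left out, and offsets for GC content and length, the last added after seeing the data.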

Additional observations from a re-analysis of the deposited data

How the results depend on the processing

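The number of members called moved by over 1.5 times in these cases. In M1 against M0 it was 1 in place of 2 when only the 6 libraries compared were fitted. Without a filter on low counts it was 1 in M2, 2 in CaP and 2 in SiO2 cells against M0, in place of 0, with Ccnd3 in all 3 and Top2a in both rods, and Ccnd3 was also added in M1 against M0. With DESeq2 it was 2 in place of 1 in M1 against M2 and 3 in place of 0 in CaP against M0. Leaving out 1 library gave 1 to 6 members in M1 against M0, 0 to 1 in M2 against M0, 1 to 2 in M1 against M2 and 0 to 2 in CaP against M0, and 0 in all fits of SiO2 against M0 and of CaP against SiO2. M2 replicate 2, which stood apart, gave both the 6 and the 2 when left out. The causes were not tested.

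The medians of the S-phase and mitotic classes moved by less than the spread between replicates under every alternative run. That spread was wide, and leaving out 1 library changed the sign of some medians. The S-phase median ran from -0.12 to 0.216 in CaP against M0 and from -0.329 to 0.0143 in M1 against M2. In CaP against SiO2 it ran from -0.188 to 0.162. Offsets for GC content and length moved the median of all genes in M1 against M0 by -0.106, and no other alternative moved one by over 0.1.

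The labels do not say whether the replicate numbers pair the samples, and the deviations from group means gave no clear sign of it. Of 30 pairs of libraries with the same number in different groups, 13 had a correlation of deviations over 0.1, and the range was -0.748 to 0.712. The median was -0.0099, beside -0.0121 for pairs with other numbers. A fit with the replicate block called 2 members in M1 against M0, Myc (3.15) and Top2a (-1.03, adjusted p = 0.0334), and changed no call of a member in any of the 6 comparisons.

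Some members had low counts. Myc had 22, Cdkn2c 40 and Ccne2 52 counts in the library where each had fewest. With counts thinned to the smallest library, Myc stayed called by edgeR in M1 against M0 (3.06, adjusted p = 2.68e-05). With 3 replicates, the simulated M1 against M0 data gave back 22% of changes of 1 log2 unit.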

Other observations

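Of 18 genes that respond to p53, 15 were tested. In M1 against M0, 6 were called higher and 1 lower, beside 9.7% and 4.35% of all genes tested, and whether this list differs from the cycle genes was not tested. Gdf15, a stress cytokine, had 1.74, 2.02 and 2.08 CPM in M0, 25.6, 26.3 and 24.5 in M1, 8.45, 5.98 and 7.80 in CaP and 6.12, 5.67 and 6.54 in SiO2 cells. The log2 fold change over M0 was 3.74 (SE 0.21, adjusted p = 4.63e-08) in M1, 1.97 (SE 0.21, adjusted p = 0.000393) in CaP and 1.69 (SE 0.21, adjusted p = 0.00512) in SiO2 cells, and the SiO2 call was lost in 1 of the 15 fits that left out 1 library. The death receptor gene Fas (1.83, adjusted p = 5.75e-05) and Sesn2 (1.22, adjusted p = 0.0249) were higher and Sesn1 (-0.94, adjusted p = 0.0192) lower in M1, and the calls of Sesn2 and Sesn1 were lost in 4 and 3 of the 15 fits. In M2 cells, Pmaip1, a promoter of cell death, was lower (-1.71, adjusted p = 0.0494), a call lost in 13 of the 15 fits. Many of these genes also respond to other signals. Cdkn1a, a target of p53 among the members, was not called in any comparison. Whether p53 had a part in these values was not tested.

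Against M2, M1 cells had higher Ckap2l (0.75, adjusted p = 0.0151) and Pbk (0.74, adjusted p = 0.00483) and lower Psrc1 (-0.80, adjusted p = 0.00216) and Kif23 (-0.65, adjusted p = 0.0199) among the further mitotic genes, and lower Rpa3 (-0.70, adjusted p = 0.0385) and Rpa2 (-0.54, adjusted p = 0.0482) among the replication genes. The regulators Btg2 (2.12, adjusted p = 8.06e-06), Mxd1 (1.90, adjusted p = 3.37e-05) and Btg1 (1.21, adjusted p = 0.0112) were higher in M1 and Ccnd2 (-0.69, adjusted p = 0.0061) lower. Leaving out 1 library ended the call of Rpa2 in 12, Rpa3 in 6, Kif23 in 3, Ckap2l in 2 and Btg1 in 2 of 15 fits. Of all genes tested, 10.6% were called higher and 5.47% lower in M1 than in M2.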
